A study of Homo sapiens with 12 samples.

Results

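The HOX cluster genes are the protein-coding homeobox genes that lie side by side in 4 chromosomal clusters, HOXA, HOXB, HOXC and HOXD. Members were the rows of the deposited count tables whose symbol was HOX followed by a cluster letter and a number, with antisense and other non-coding genes left out. The 38 members analysed, of 36762 gene symbols in all, comprise 10 of HOXA, 10 of HOXB, 9 of HOXC and 9 of HOXD. They were followed by bulk RNA sequencing in human embryonic stem cells (hESC) of the UCLA1 line and in the incipient mesoderm-like cells (iMeLC) made from them, an early step on the way to primordial germ cell-like cells. The libraries form 4 groups of 3: control hESC (CTRL hESC), hESC carrying a knockout of the TET1 catalytic domain (CDKO hESC), and iMeLC of both genotypes (CTRL iMeLC and CDKO iMeLC). TET1 is an enzyme that oxidises 5-methylcytosine, the first step of active DNA demethylation. All 12 libraries share the UCLA1 background. The labels name 3 CTRL lines (CTRL1101, CTRL1106 and CTRL1109) and 3 CDKO lines (CDKO1102, CDKO1105 and CDKO1312). No source used here says whether each line is a clone or how long the iMeLC were cultured. The iMeLC columns name the line, while the hESC columns give genotype and a number from 1 to 3, so no hESC library was tied to a line.

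HOX proteins are transcription factors that tell cells where they lie along the head-to-tail axis. Genes at the 3' end of each cluster, with low paralogue numbers, are used first and towards the head, and genes at the 5' end, with high numbers, are used later and towards the tail. In pluripotent cells the clusters are held silent under Polycomb marks, and their CpG-rich promoters are known binding places of TET1.

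The library totals, the libraries that stood apart and the labels were checked first. The hESC libraries held 12517593 to 18855099 counts each and the iMeLC libraries 52121702 to 109479071. Levels are given in CPM, the count scaled to the effective total of its library, and 3 counts amounted to 0.156 to 0.245 CPM in hESC and 0.0266 to 0.0592 CPM in iMeLC. TET1 stood at 325, 379.9 and 343.7 CPM in CTRL hESC, 424, 448 and 378 CPM in CDKO hESC, 257, 289 and 265 CPM in CTRL iMeLC, and 288, 309 and 268 CPM in CDKO iMeLC, and passed in neither comparison (edgeR adjusted p = 0.209 and 0.577). A count over the whole gene cannot check the loss of a single domain. Of 10 pluripotency markers 8 were called lower in iMeLC than in hESC in each genotype (edgeR adjusted p under 0.05). Of 13 primitive streak markers 10 were called higher in CTRL, and 9 higher and 1 lower in CDKO. Of all genes tested, 29.5% were called higher and 19.9% lower in CTRL, and 32.1% and 27.7% in CDKO. The primitive streak sum was 698 CPM in CDKO hESC 3 against 63.9 to 175 CPM in the other 5 hESC libraries, and 241 CPM in CTRL1106 against 838 to 1942 CPM in the other 5 iMeLC libraries. CTRL1101 stood apart from the other CTRL iMeLC libraries in HOX level, as described below. These libraries are cell populations, in which fewer cells expressing a gene and less RNA of it in each cell cannot be told apart.

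The HOX clusters were nearly silent, and CDKO libraries carried more HOX RNA than CTRL libraries at both stages. Summed over the 38 members, the level was 4.18, 5.15 and 4.82 CPM in CTRL hESC 1 to 3 and 9.80, 11.6 and 12.8 CPM in CDKO hESC 1 to 3. Every CDKO hESC library was above every CTRL hESC library. In iMeLC the sum was 25.4 CPM in CTRL1101, 6.39 CPM in CTRL1106 and 8.69 CPM in CTRL1109, against 46.1, 38.6 and 26.98 CPM in CDKO1102, CDKO1105 and CDKO1312. Again no CDKO library fell below a CTRL library, but CTRL1101 lay just under CDKO1312 and far above the other CTRL libraries. The group means were 4.72 ± 0.491 CPM (SD, n = 3) in CTRL hESC, 11.4 ± 1.5 in CDKO hESC, 13.5 ± 10.4 in CTRL iMeLC and 37.2 ± 9.63 in CDKO iMeLC, a CDKO to CTRL ratio of 2.41 in hESC and 2.76 in iMeLC. As a sum over chosen genes these values carry no test.

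**Figure D1:**
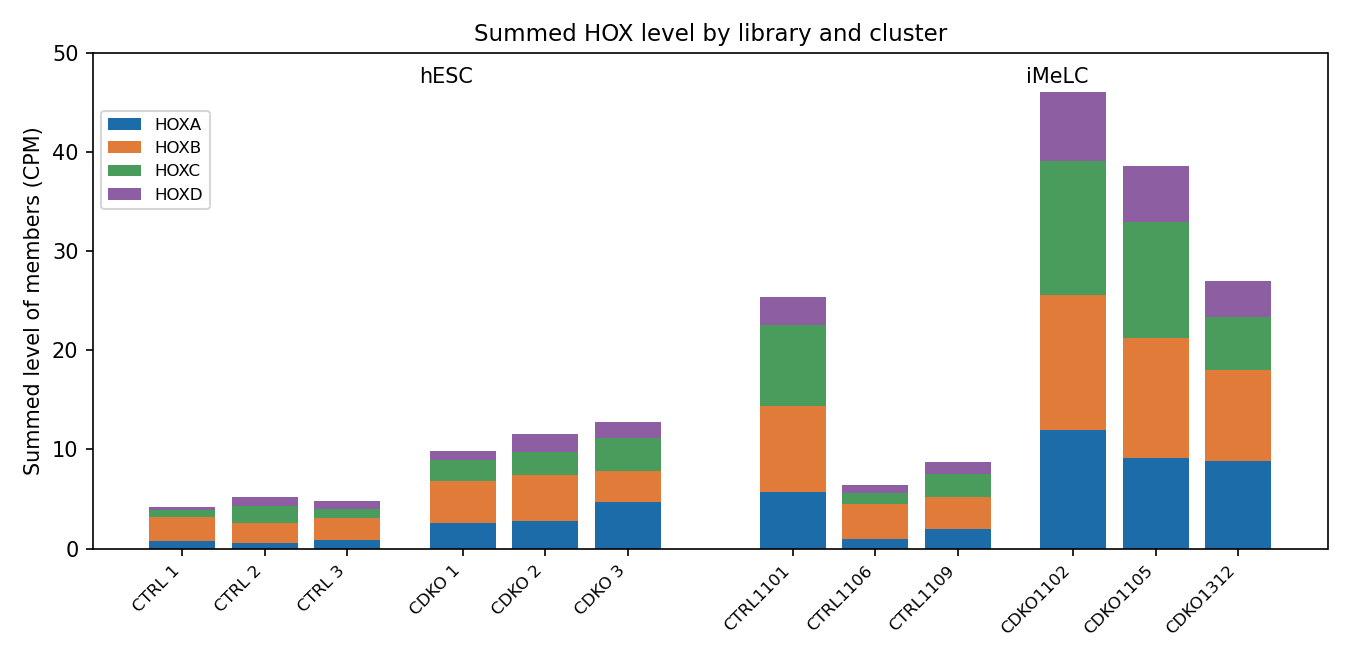
Summed level of the 38 HOX members in each of the 12 libraries, in CPM, stacked by cluster (bars start at 0). CDKO hESC libraries sit between 9.80 and 12.8 CPM, above the CTRL hESC libraries at 4.18 to 5.15 CPM, and CTRL1101, at 25.4 CPM, lies close to CDKO1312, at 26.98 CPM.

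The summed level of each of the 4 clusters had a higher mean in CDKO at both stages. In hESC the CDKO to CTRL ratio of the summed level was 4.57 for HOXA, 1.83 for HOXB, 2.27 for HOXC and 2.21 for HOXD. In iMeLC it was 3.50 for HOXA, 2.26 for HOXB, 2.62 for HOXC and 3.39 for HOXD. The HOXA sum was 0.800, 0.566 and 0.829 CPM in CTRL hESC against 2.53, 2.81 and 4.69 CPM in CDKO hESC. Without HOXA7 the HOXA ratio was 1.87 in hESC and 2.59 in iMeLC. The HOXD sums overlapped in hESC, where CDKO hESC 1 (0.817 CPM) lay below CTRL hESC 2 (0.849) and CTRL hESC 3 (0.881). HOXB made the largest part of the CTRL hESC sum, 39.6% to 55.9% by library. In iMeLC the HOXC sums overlapped between genotypes, with 8.17 CPM in CTRL1101 against 5.28 CPM in CDKO1312, and the sums of the other clusters did not.

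Of the 3 members that could be tested in hESC, HOXA7 was the 1 called between genotypes. It is a central HOXA gene, expressed in the trunk of the embryo, and lies on the minus strand at chr7:27153716-27157936 (ENSG00000122592, GRCh38, GENCODE 29). Its counts were 2, 3 and 2 in the CTRL hESC libraries 1 to 3 against 21, 32 and 55 in the CDKO hESC libraries 1 to 3, or 0.123, 0.170 and 0.104 CPM against 1.71, 1.76 and 3.18 CPM. All CDKO libraries were high, all CTRL libraries were at or near the level of 3 counts, and the groups did not overlap. HOXA7 rose by a log2 fold change of 4.01 (SE 0.48, edgeR adjusted p = 0.0125, n = 3 libraries a group). The pooled counts, 108 against 7, gave a ratio of 17.2 (95% exact binomial interval 8.08 to 43.8, for counting error only). The call was lost without CDKO hESC 2 (edgeR adjusted p = 0.0577) and in no other single-library omission, with adjusted p from 1.51e-09 to 0.0577 over the 10 alternatives.

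HOXA7 was called in hESC, while the HOXA genes on either side of it, HOXA6 and HOXA9, were too low to be tested. Both neighbours were at or under 0.289 CPM in every hESC library. The promoters of HOXA7, HOXA6 and HOXA9 are printed for that reason. That of HOXB1 is added as the promoter of the most expressed member of CTRL hESC per length. They are from RefSeq (GRCh38.p14), 250 bases before to 50 bases after the transcription start, 5' to 3' on the gene's strand, with CpG dinucleotides in capitals. HOXA7 is at chr7:27156626-27156925, HOXA6 at chr7:27147725-27148024, HOXA9 at chr7:27165488-27165787 and HOXB1 at chr17:48530962-48531261, all on the minus strand. In GENCODE 29 the HOXA7, HOXA6 and HOXA9 windows lie wholly inside the annotated gene, with 129, 50 and 43 of the 300 bases in its exons, and the HOXB1 window has 40 bases in the gene, all exonic.
HOXA7: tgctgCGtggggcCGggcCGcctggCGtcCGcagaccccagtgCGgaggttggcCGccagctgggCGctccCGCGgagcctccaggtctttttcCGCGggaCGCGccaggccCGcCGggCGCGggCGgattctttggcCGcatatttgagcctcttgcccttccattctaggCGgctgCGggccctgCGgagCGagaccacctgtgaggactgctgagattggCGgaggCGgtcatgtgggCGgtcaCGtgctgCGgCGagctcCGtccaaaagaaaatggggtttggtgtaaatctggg
HOXA6: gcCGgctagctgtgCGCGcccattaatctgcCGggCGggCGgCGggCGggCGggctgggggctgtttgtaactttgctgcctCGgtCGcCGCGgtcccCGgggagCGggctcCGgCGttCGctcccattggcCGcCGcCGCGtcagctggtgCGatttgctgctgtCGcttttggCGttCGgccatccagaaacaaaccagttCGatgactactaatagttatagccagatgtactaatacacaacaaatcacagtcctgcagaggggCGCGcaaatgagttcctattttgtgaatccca
HOXA9: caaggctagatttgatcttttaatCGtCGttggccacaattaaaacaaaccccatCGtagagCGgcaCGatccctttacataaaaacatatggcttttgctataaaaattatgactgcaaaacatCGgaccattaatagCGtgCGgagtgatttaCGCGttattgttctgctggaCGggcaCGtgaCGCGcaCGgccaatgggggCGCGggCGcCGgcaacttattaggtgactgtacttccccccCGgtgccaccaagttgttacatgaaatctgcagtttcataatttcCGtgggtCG
HOXB1: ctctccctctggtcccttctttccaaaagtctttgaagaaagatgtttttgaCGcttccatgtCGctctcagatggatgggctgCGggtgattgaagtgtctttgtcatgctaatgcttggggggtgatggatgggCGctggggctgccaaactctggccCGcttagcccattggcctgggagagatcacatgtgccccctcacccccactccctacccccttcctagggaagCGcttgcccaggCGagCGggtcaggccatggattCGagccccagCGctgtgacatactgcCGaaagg
The HOXA7 window holds 31 CpG, more than 79.3% of the 35116 promoter windows of all genes hold. HOXA6 has 29 CpG and HOXA9 has 22, while HOXB1 has 11, below the median of 14 over all genes. Over the 26 distinct windows of the 20 members with an entry, the median was 22.5 CpG and 19 windows were above the median of all genes. TTTATG and TTTACG, letters found in binding sites of caudal and posterior HOX proteins, were searched on both strands, and both occur in the HOXA9 window and neither in the other 3 windows printed. They occur in 10.6% and 3.12% of all windows and in 3 and 2 of the distinct member windows. These matches describe letters only, and no methylation or binding was measured here.

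Among the members tested in hESC, HOXA7 was called higher and none was called lower, where 0.598% of all 17222 genes tested were called higher and 0.714% lower. Only 3 of 38 members passed the filter on low counts, so the other 35 could not be called. HOXB2, a hindbrain gene, stood at 0.431, 0.283 and 0.311 CPM in CTRL hESC against 1.06, 0.936 and 0.752 CPM in CDKO hESC. Its groups did not overlap, but its log2 difference of 1.40 did not pass (SE 0.41, edgeR adjusted p = 0.138). HOXB1, which patterns a single hindbrain segment, was at 1.11, 0.509 and 0.933 CPM in CTRL hESC against 1.39, 1.38 and 0.983 CPM in CDKO hESC, with the lowest CDKO library below the highest CTRL library. Its log2 difference of 0.55 did not pass (SE 0.38, adjusted p = 0.506).

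The untested members were few in counts but mostly leaned one way. Of 38 members 35 had a higher mean in CDKO hESC, the exceptions being HOXA6, HOXA13 and HOXC5. In 5 members, HOXA7, HOXB2, HOXB3, HOXB4 and HOXD12, every CDKO hESC library was above every CTRL hESC library, 13.2% of members against 8.53% of all genes with a count, and in 0 members was every CDKO library below. HOXD12, a gene of the distal limb, had no count in CTRL hESC and 1, 7 and 1 counts in CDKO hESC 1 to 3. HOXB4 had 1 count in each CTRL hESC library and 1, 3 and 3 counts in CDKO hESC 1 to 3. CDKO hESC 1 thus tied with CTRL in HOXB4 counts and stood above in CPM only through its smaller total. HOXB3 stood at 0.308, 0.226 and 0.104 CPM in CTRL hESC against 0.735, 0.936 and 0.347 CPM in CDKO hESC. The CTRL hESC mean of all 38 members was under 1 CPM, and in CDKO hESC 36 were, HOXA7 and HOXB1 being above. Leaving HOXA7 out, the summed level still differed by a ratio of 1.998 in hESC. HOXA7 made 2.15% to 3.30% of the sum in CTRL hESC and 15.2% to 24.9% in CDKO hESC.

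**Figure D2:**
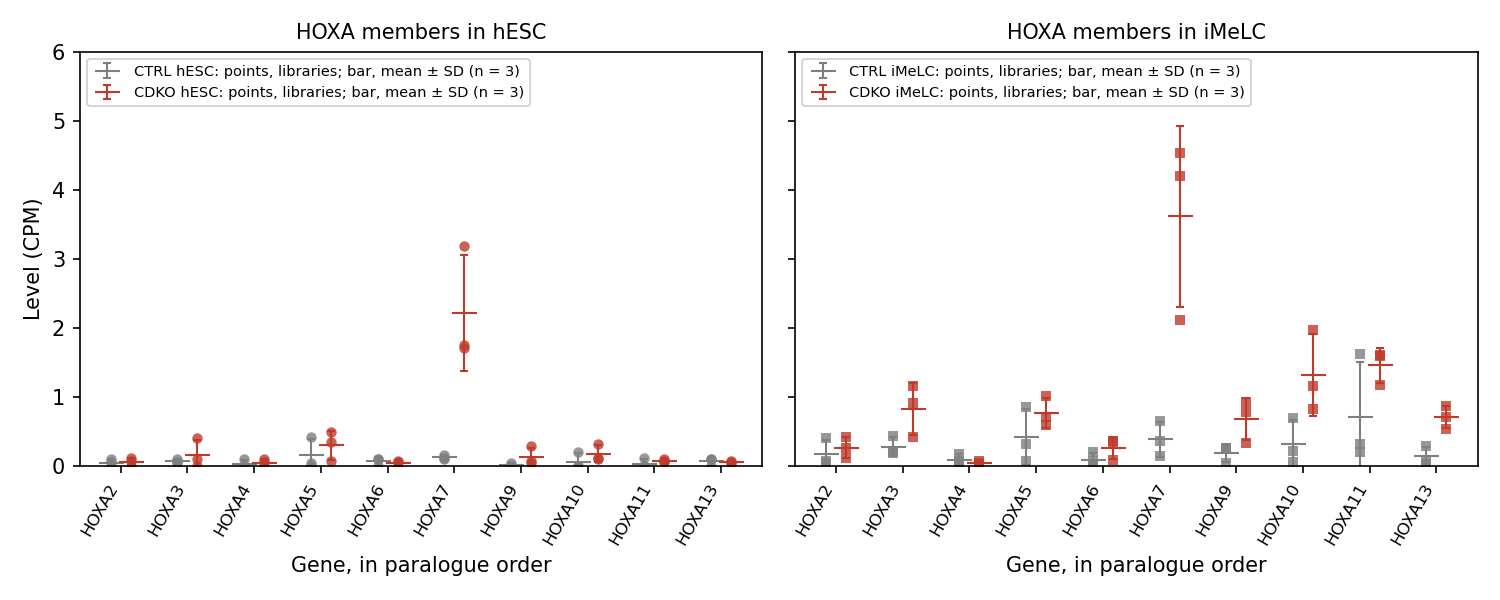
Level of each HOXA member in hESC (left) and iMeLC (right), in CPM on a linear axis, with points for libraries and a bar for the mean ± SD of 3 libraries. HOXA7 is above 1.7 CPM in the 3 CDKO hESC libraries and at most 0.170 CPM in CTRL hESC, while its neighbours overlap between genotypes in hESC.

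In iMeLC nearly all members had more RNA in CDKO, but none passed the test across all genes. Of 38 members 37 had a higher mean in CDKO iMeLC, HOXA4 being the exception. With edgeR 0 of 31 tested members were called, where 0.08% of all 19999 genes tested were called higher and 0.265% lower. An unadjusted p under 0.05 was found for 14 members and for 3952 of the 19999 genes. The 31 tested members all had a positive log2 difference, from 0.08 to 3.27 with a median of 1.44, where all genes tested had a median of -0.03. HOXB1, HOXB2 and HOXD3 turned negative when certain single libraries were left out. A member had to be counted in some group to be tested, so these 31 do not speak for the 7 that were not. The DESeq2 Wald test called 8 members higher (HOXA7, HOXA13, HOXB6, HOXB13, HOXC5, HOXC13, HOXD8 and HOXD10) while calling 7.21% of all genes.

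HOXA7 again had the smallest p of the members. It stood at 0.656 CPM in CTRL1101, 0.146 in CTRL1106 and 0.373 in CTRL1109, and at 4.20, 2.12 and 4.53 CPM in CDKO1102, CDKO1105 and CDKO1312. The lowest CDKO library was above the highest CTRL library. The log2 difference of 3.202 did not pass with edgeR (SE 0.56, adjusted p = 0.0785). Over the alternatives its adjusted p ran from 6.71e-09 with DESeq2 to 0.365, and it was called in 4 of 10. The pooled counts, 753 against 119, gave a ratio of 8.92 (95% exact binomial interval 7.34 to 10.9). The antisense gene HOXA-AS3 overlaps HOXA7 on the other strand and stood at 0 to 0.207 CPM over the 12 libraries, below HOXA7 in each CDKO library.

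The members with the next smallest p included 5' genes of each cluster. HOXC13, a gene of hair and nail formation, had 4, 4 and 2 counts in CTRL1101, CTRL1106 and CTRL1109 against 28, 18 and 20 counts in CDKO1102, CDKO1105 and CDKO1312. All CDKO libraries were higher, and the pooled counts gave a ratio of 9.30 (95% exact binomial interval 4.75 to 20.3), with a log2 difference of 3.27 (edgeR adjusted p = 0.106). HOXD10, a lumbar and limb gene, was at 0.562, 0.208 and 0.328 CPM in CTRL against 2.01, 1.20 and 1.20 CPM in CDKO iMeLC. Its groups did not overlap either (log2 difference 1.998, SE 0.46, adjusted p = 0.117). HOXA13, which patterns digits and the hindgut, stood at 0.302, 0.0416 and 0.0976 CPM in CTRL against 0.868, 0.721 and 0.549 CPM in CDKO, with no overlap (2.27, adjusted p = 0.158). HOXB13, a gene of the tail and prostate, stood at 0.240, 0.0936 and 0.0532 CPM in CTRL against 0.276, 0.630 and 0.880 CPM in CDKO. CDKO1102 was only just above CTRL1101, and the log2 difference was 2.22 (adjusted p = 0.163).

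HOXC5, HOXB6 and HOXA3 were the others among the 8 members of smallest p. HOXC5, a cervical gene, had 6, 6 and 2 counts in CTRL against 19, 38 and 17 counts in CDKO iMeLC, all CDKO counts being higher (log2 difference 2.83, edgeR adjusted p = 0.124). In hESC the direction of its means was the other way, with 7 counts in CTRL against 3 in CDKO, a ratio of 0.478 (interval 0.0798 to 2.09). HOXB6 stood at 0.479, 0.0936 and 0.293 CPM in CTRL against 1.11, 0.962 and 0.893 CPM in CDKO iMeLC, without overlap (1.77, SE 0.56, adjusted p = 0.164). HOXA3, a gene of the pharyngeal arches, was at 0.448, 0.218 and 0.195 CPM in CTRL against 1.16, 0.916 and 0.421 CPM in CDKO, where CDKO1312 lay below CTRL1101 (1.53, adjusted p = 0.191).

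By the mean CPM of all 6 iMeLC libraries the leading member was HOXA7 in HOXA, HOXB9 in HOXB, HOXC6 in HOXC and HOXD8 in HOXD. In CTRL iMeLC alone HOXA11 led HOXA (0.720 CPM) and HOXD13 led HOXD (0.406 CPM). HOXB9, a thoracic gene, reached 2.16 CPM in CTRL1101, 0.250 in CTRL1106 and 0.479 in CTRL1109, against 3.49, 2.12 and 1.62 CPM in CDKO1102, CDKO1105 and CDKO1312. HOXC6, a gene of the brachial region, stood at 3.66, 0.281 and 0.976 CPM in CTRL against 5.39, 5.21 and 1.88 CPM in CDKO. For both genes CTRL1101 lay inside the range of the CDKO libraries, and the log2 differences of 1.32 and 1.34 did not pass (edgeR adjusted p = 0.353 and 0.391). HOXD8 stood at 0.760, 0.0728 and 0.319 CPM in CTRL against 2.80, 1.64 and 0.867 CPM in CDKO, with no overlap (2.19, adjusted p = 0.191).

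**Figure D3:**
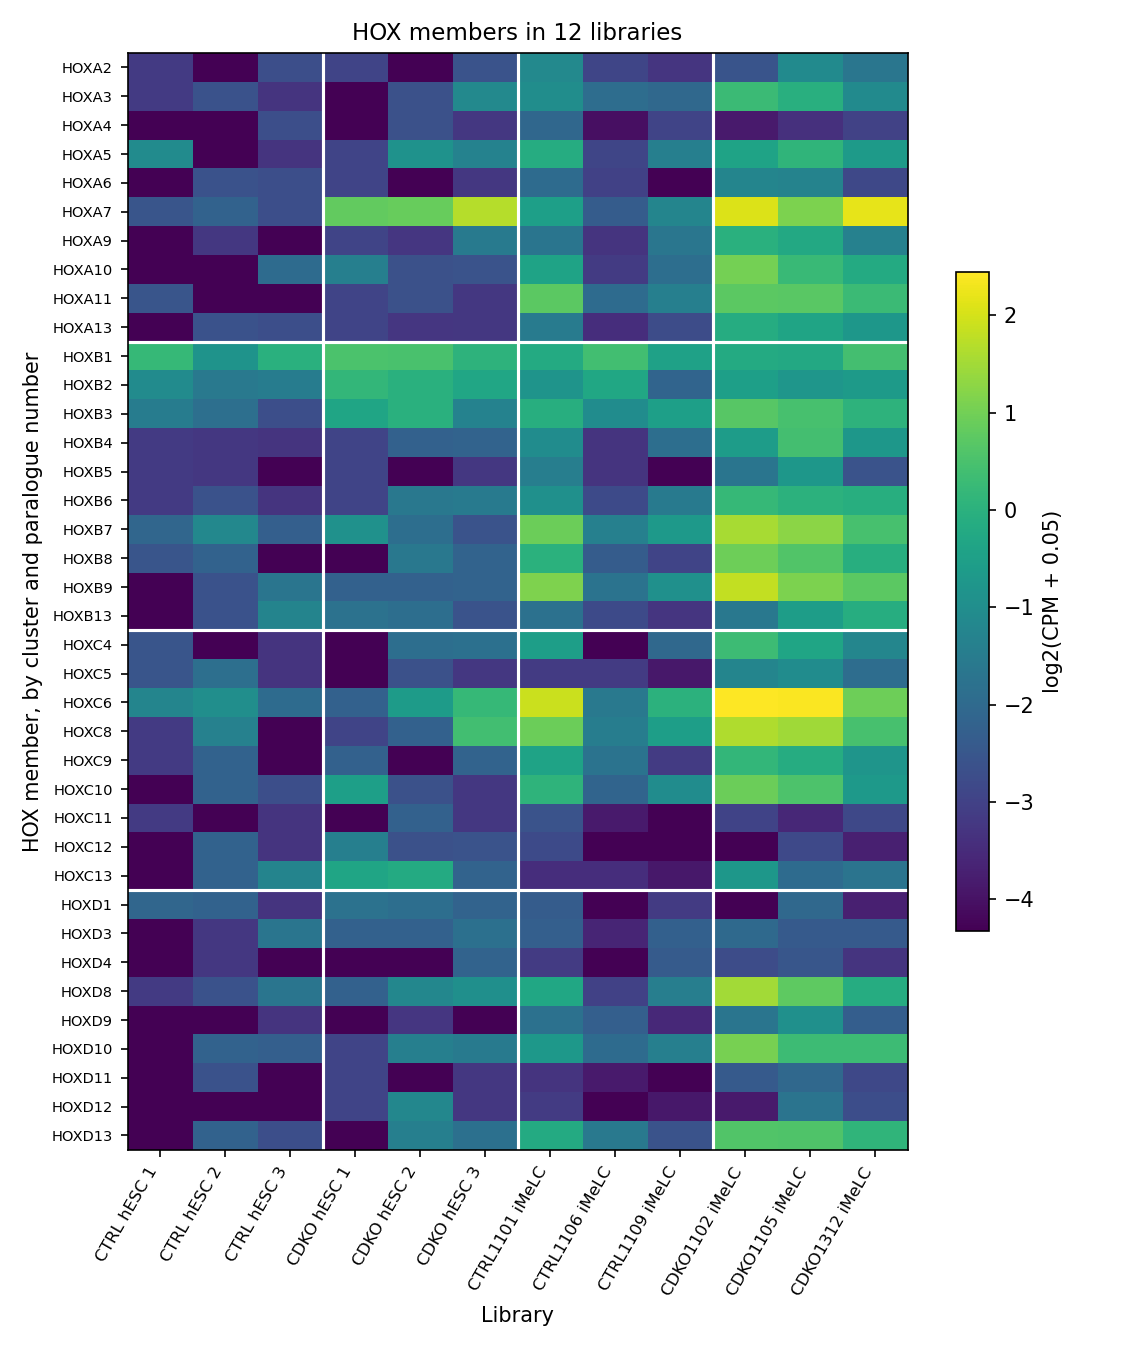
Level of each member in each library as log2(CPM + 0.05), with rows in cluster and paralogue order and white lines between clusters and groups. HOXA7 is bright in all 6 CDKO libraries, HOXB1 lies between 0.509 and 1.39 CPM in all 12 libraries, and CTRL1101 is the highest CTRL iMeLC column for 33 of 38 members.

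Every CDKO iMeLC library was above every CTRL iMeLC library in 14 of 38 members, 36.8% against 8.56% of all genes with a count, and below in 0. They were 4 HOXA, 4 HOXB, 2 HOXC and 4 HOXD genes, and by position 2 of the 11 members with paralogue numbers 1 to 4, 4 of the 11 with numbers 5 to 8 and 8 of the 16 with numbers 9 to 13. The library CTRL1101 was the highest CTRL library in 33 of 38 members and stood above CDKO1312 in 21. CTRL1106 was the lowest or tied lowest of the 6 libraries in 23 members. Without CTRL1101, 15 of 33 tested members were called higher by edgeR (12.8% of all genes were called then), the median log2 difference was 2.44, the summed ratio on the log2 scale went from 1.46 to 2.30, and 30 of 38 members did not overlap (17.2% of all genes with a count). That omission was chosen after the values of CTRL1101 were seen.

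Markers of fibroblasts moved with the HOX members in iMeLC. The sum of 20 fibroblast marker genes was 3408, 1270 and 1628 CPM in CTRL1101, CTRL1106 and CTRL1109 and 3879, 3471 and 2997 CPM in CDKO1102, CDKO1105 and CDKO1312. By this sum CTRL1101 lay within the CDKO range. The sum is weighted to abundant markers such as VIM, which had 169642 counts in CTRL1101. Non-overlap between genotypes, which by definition puts CTRL1101 below every CDKO library, held for 9 of the 20 markers. All 20 markers had a positive log2 difference with a median of 0.86, and 0 were called. By edgeR 10 had an unadjusted p under 0.05 (3952 of all 19999 genes tested), and 9 did not overlap (12.2% of genes tested). CTRL1101 was the highest CTRL library for 17 of the 20 markers and CTRL1106 the lowest of the 6 libraries for 17. All 20 had a count in every iMeLC library. Among the defining markers, COL1A1 ranged from 176 to 528 CPM in CTRL and from 303 to 453 CPM in CDKO, DCN from 0.624 to 3.05 and from 3.19 to 8.21 CPM, and LUM from 0.198 to 0.469 and from 1.28 to 3.37 CPM. In hESC the sums ranged from 673 to 1009 CPM in CTRL and from 949.8 to 1119 CPM in CDKO, and DCN, LUM and FAP were at 0 in at least 1 library. Fibroblast markers were not alone in this direction in iMeLC. Of definitive endoderm markers 10 of 10 tested were positive with a median of 1.69, and of later mesoderm markers 10 of 11 with a median of 1.21. The part of these markers in the HOX difference was not tested.

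**Figure D4:**
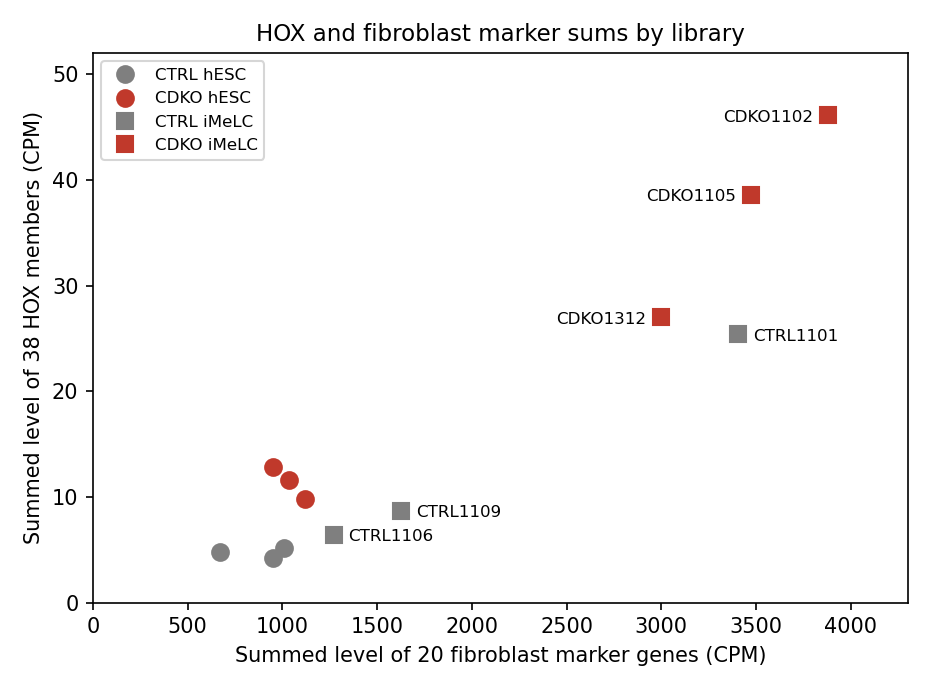
Summed level of the 38 HOX members against the summed level of 20 fibroblast markers in each library, both in CPM from 0. CTRL1101 (3408 and 25.4 CPM) lies beside the CDKO iMeLC libraries, and the CDKO hESC libraries (949.8 to 1119 CPM of markers) lie above the CTRL hESC libraries (673 to 1009 CPM of markers) in HOX level. Non-overlap between genotypes in iMeLC, which by definition puts CTRL1101 below every CDKO library, holds for 9 of the 20 markers.

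By position along the clusters, the difference in iMeLC was smaller for the 3' genes. The median log2 difference was 0.79 over the 8 tested members with paralogue numbers 1 to 4, 1.54 over the 11 with numbers 5 to 8 and 1.76 over the 12 with numbers 9 to 13. Drawing the first border after number 3 gave 0.52 over 6 members and 1.54 over 13. HOXB1 and HOXB2 were lowest, with HOXB1 at 0.823, 1.27 and 0.683 CPM in CTRL against 0.829, 0.802 and 1.29 CPM in CDKO iMeLC (log2 difference 0.08, SE 0.37, edgeR adjusted p = 0.922). HOXB2 stood at 0.521, 0.770 and 0.177 CPM in CTRL against 0.651, 0.538 and 0.600 CPM in CDKO, also overlapping (0.29, adjusted p = 0.792). Across the 31 tested members Spearman's rho of paralogue number with the log2 difference was 0.52. The genes share the same 6 libraries, so this is a description. In hESC the ratio of the summed level was 1.996 for numbers 1 to 4, 3.03 for 5 to 8 and 2.27 for 9 to 13, and in iMeLC it was 1.74, 3.23 and 2.95. Without HOXA7 the ratio for numbers 5 to 8 was 1.77 in hESC, then the lowest of the 3, and 2.78 in iMeLC.

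**Figure D5:**
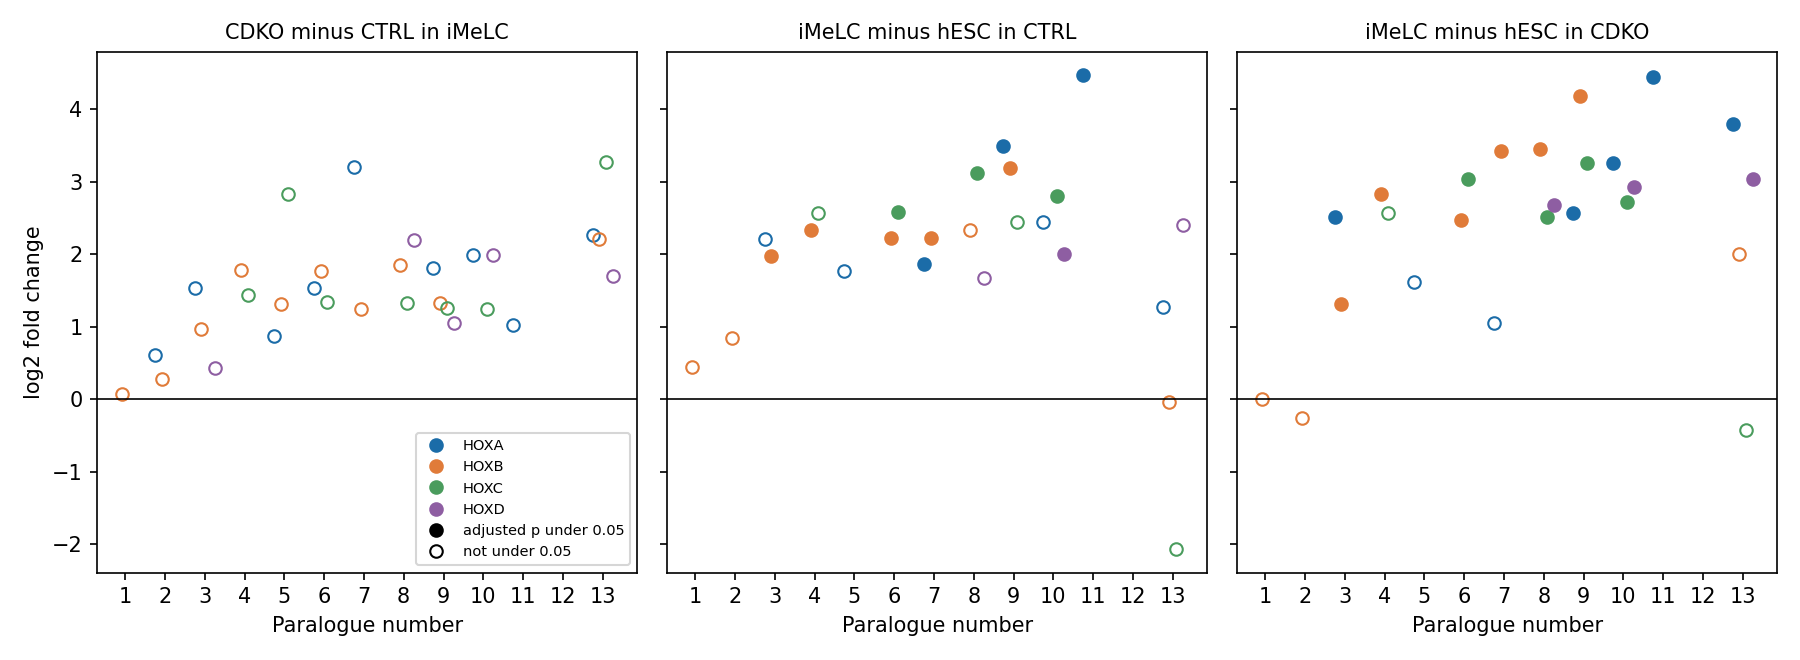
Log2 fold change of each tested member against its paralogue number, coloured by cluster, for CDKO minus CTRL in iMeLC (left) and for iMeLC minus hESC in CTRL (middle) and CDKO (right), with filled points for an adjusted p under 0.05. In the left panel the 31 members lie above 0 and none is filled, and in the other panels HOXC13 lies lowest and HOXA11 highest.

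Many HOX genes rose from hESC to iMeLC in each genotype. In this comparison stage cannot be told apart from the table, its depth and whatever else differed between the tables. CPM was scaled within each stage and the fits over all 12 libraries, so CPM of different stages is not on exactly one scale. Near ties in CPM between stages therefore do not settle overlap. Of 25 members tested over all 12 libraries, 12 were called higher and 0 lower in CTRL, where 29.5% of all genes tested were called higher and 19.9% lower. In CDKO 18 were called higher and 0 lower, where 32.1% of all genes were called higher and 27.7% lower. The median log2 fold change of the 25 was 2.23 in CTRL and 2.69 in CDKO, against -0.01 and -0.08 over all genes. Only 3 of 38 members passed the filter on the hESC libraries alone, so most of the 25 were tested through their iMeLC counts. That choice favours a rise, and these medians do not speak for the members not tested. Without the filter the median over all 38 was 2.05 in CTRL and 2.60 in CDKO, with 33 higher and 5 lower in each. The number called in CTRL fell to 5 without CTRL hESC 1 (4 higher, and HOXC13 lower with a log2 fold change of -2.58, edgeR adjusted p = 0.0321), 4 without CTRL hESC 3 and 2 without CTRL1101.

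Members with the largest rises were central and 5' genes. HOXA11, which patterns the forearm and uterus, went from 2 counts in CTRL hESC 1 and 0 in CTRL hESC 2 and 3 to 1.62, 0.208 and 0.328 CPM in CTRL iMeLC, the highest library being CTRL1101 and none of the iMeLC libraries overlapping hESC. HOXA11 had a log2 fold change of 4.47 in CTRL (edgeR adjusted p = 0.00459). Without CTRL hESC 1, which held the only hESC counts, the fitted value was 8.37 and depends on the prior count, and without CTRL1101 it was 3.002, with the call kept in both. In CDKO it went from 0.0817, 0.110 and 0.0578 CPM to 1.62, 1.60 and 1.17 CPM, again without overlap (4.44, adjusted p = 0.00155). HOXB9 went from 0, 0.113 and 0.259 CPM in CTRL hESC to 2.16, 0.250 and 0.479 CPM in CTRL iMeLC, with CTRL1106 just below the highest hESC library (3.19, adjusted p = 0.0121). In CDKO, HOXB9 was at 0.163 to 0.174 CPM in hESC and 1.62 to 3.49 CPM in iMeLC (4.18, adjusted p = 0.00145).

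The other large rises in CTRL were of HOXA9 (log2 fold change 3.49), HOXC8 (3.12) and HOXC10 (2.81), with edgeR adjusted p from 0.0289 to 0.0352. HOXA9 is a blood and trunk gene. It stood at 0, 0.0566 and 0 CPM in CTRL hESC against 0.260, 0.0520 and 0.266 CPM in CTRL iMeLC. Here CTRL1106 was at about the level of CTRL hESC 2. HOXC8, a brachial gene, was at 0.0615, 0.340 and 0 CPM in CTRL hESC against 1.85, 0.312 and 0.647 CPM in CTRL iMeLC. HOXC10, a lumbar gene, was at 0, 0.170 and 0.104 CPM and 0.9997, 0.177 and 0.435 CPM. For HOXC8 and HOXC10 CTRL1106 was at about the level of the highest hESC library. With CPM scaled within each stage, the order in such near ties depends on the scaling. Without CTRL1101 the call was lost for HOXA9 (adjusted p = 0.0653), HOXB9 (0.0527), HOXC8 (0.111) and HOXC10 (0.125). HOXA9, HOXC8 and HOXC10 were also lost without CTRL hESC 1 (0.0896, 0.0871 and 0.105) and without CTRL hESC 3 (0.105, 0.0998 and 0.0879), and HOXA9 without CTRL1109 (0.0695). The log2 fold changes ranged over the alternatives from 2.96 to 6.48 for HOXA9, from 1.74 to 4.33 for HOXB9, from 2.11 to 5.25 for HOXC8 and from 1.96 to 3.55 for HOXC10. HOXA9 was at 6.48 and HOXC8 at 5.25 without CTRL hESC 2, which held the only HOXA9 count in CTRL hESC, while HOXB9, HOXC8 and HOXC10 were lowest without CTRL1101. Over all alternatives the adjusted p of these 4 genes ran from 0.00145 to 0.125.

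The other large rises in CDKO were of HOXA13 (3.79), HOXB8 (3.45) and HOXB7 (3.43), with edgeR adjusted p from 0.00135 to 0.0109. HOXA13 had 1 count in each CDKO hESC library and 0.868, 0.721 and 0.549 CPM in CDKO iMeLC. HOXB8, a gene of blood progenitors and the spinal cord, went from 0, 0.275 and 0.174 CPM to 1.87, 1.47 and 0.893 CPM. HOXB7 went from 0.490, 0.220 and 0.116 CPM to 2.92, 2.36 and 1.33 CPM. None of these 3 genes overlapped between the stages in CDKO, and none lost its call in a single-library omission.

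Called in both genotypes were 11 members, in CTRL alone HOXA7, and in CDKO alone HOXA3, HOXA10, HOXA13, HOXB8, HOXC9, HOXD8 and HOXD13. The HOXA7 call in CTRL was lost in 5 of 6 single-library omissions (highest adjusted p = 0.137), and HOXA7 was called in CDKO under 4 of 10 alternatives. Whether the genotype difference itself changed between stages was tested by the interaction. It called 0 of 25 members, with 0 at an unadjusted p under 0.05 and a lowest adjusted p of 0.527 with edgeR, and 0 with DESeq2, which gave 1 member an unadjusted p under 0.05. Of all genes 0.0148% were called higher and 0.00494% lower. For HOXA7 the interaction was -0.82 on the log2 scale (SE 0.86, adjusted p = 0.759). HOXB1 did not pass from hESC to iMeLC (0.45 in CTRL, adjusted p = 0.35, and 0.01 in CDKO, adjusted p = 0.986), nor did HOXB2 (0.84, adjusted p = 0.198, and -0.25, adjusted p = 0.663). HOXC13 had negative values that did not pass (-2.06, adjusted p = 0.0912, and -0.42, adjusted p = 0.641).

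Levels of different members were compared per length of their exons, in CPM per kilobase. HOXB1 led in CTRL hESC at 0.343 ± 0.124 (SD, n = 3), followed by HOXB7 at 0.161 ± 0.0860 and HOXB2 at 0.146 ± 0.0336. HOXB7 and HOXB2 lie within each other's spread. HOXA7 led in CDKO hESC at 0.921 ± 0.346, ahead of HOXB1 at 0.505 ± 0.0931. In CTRL hESC HOXA7 ranked 12 of 38, at 0.0548 ± 0.0141. CTRL iMeLC was led by HOXB7 at 0.605 ± 0.538, HOXC8 at 0.496 ± 0.429 and HOXC6 at 0.462 ± 0.503, whose spreads overlap widely. CDKO iMeLC was led by HOXA7 at 1.5 ± 0.542, HOXB7 at 1.44 ± 0.529, HOXC8 at 1.26 ± 0.482 and HOXC6 at 1.17 ± 0.559, and these differ by less than their SD.

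Exons of 19 members overlap another gene on the same strand and those of 24 overlap a gene on the opposite strand in GENCODE 29, while 9 have neither overlap. Overlapping genes not annotated as protein-coding were taken over their whole span, introns included. Some of these overlaps may therefore share no exon sequence. HOXC6 shares exon sequence with HOXC4 and HOXC9, HOXB3 with HOXB4 and HOXB6, and HOXD10 with HOXD11. HOXA3, HOXA6, HOXA9 and HOXC5 are among the members that overlap genes with clone names. HOXC4 and HOXC6 also overlap the span of a model named HOXC5 that is not the protein-coding one used. Whether reads of HOXC5 are shared with them is not known. Without the counting rules and the strand setting, the split of reads among such genes is uncertain. HOXB1, HOXB8, HOXB9, HOXB13, HOXC8, HOXD12 and HOXD13 are among the members with no overlap.

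Few genes that act upstream of or with HOX proteins passed between genotypes, as was so for all genes. With edgeR 226 of 17222 genes passed in hESC and 69 of 19999 in iMeLC, and 2777 and 3952 had an unadjusted p under 0.05. Of 9 HOX cofactor genes of the PBX, MEIS and PKNOX families, whose proteins bind DNA with HOX proteins, 0 passed in either stage with edgeR, with 0 and 3 at an unadjusted p under 0.05. MEIS1 stood at 4.09, 2.08 and 2.46 CPM in CTRL iMeLC against 8.15, 6.33 and 3.92 CPM in CDKO iMeLC, with CDKO1312 just below CTRL1101 (log2 difference 1.09, adjusted p = 0.17). From hESC to iMeLC 3 cofactors were called higher and 2 lower in each genotype. Of all genes tested, 29.5% were called higher and 19.9% lower in CTRL, and 32.1% and 27.7% in CDKO. MEIS1 rose by 1.63 in CTRL (adjusted p = 0.0126, lost without CTRL hESC 2 at 0.0559, without CTRL hESC 3 at 0.0548 and in the fit on the CTRL libraries alone at 0.0529) and by 2.71 in CDKO (adjusted p = 3.9e-04).

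Among 8 caudal-type ParaHox and EVX genes, CDX4 was the gene that passed between genotypes. CDX4 is a caudal homeobox factor of the posterior embryo. Of the 8, 1 was tested in hESC and 5 in iMeLC. The iMeLC levels were 1.60 CPM in CTRL1101, 2.32 in CTRL1106 and 0.922 in CTRL1109, against 0.0395, 0.0458 and 0.102 CPM in CDKO1102, CDKO1105 and CDKO1312. The CDKO libraries were all lower, the opposite direction to the HOX members. The log2 fold change was -4.63 (SE 0.56, edgeR adjusted p = 0.0284), and the call was lost without any 1 CDKO library (adjusted p 0.0926 to 0.181; 2.02e-11 to 0.181 over all alternatives). CDX4 did not pass in hESC (-0.22, adjusted p = 0.833). From hESC to iMeLC it fell by 3.20 on the log2 scale in CDKO (adjusted p = 2.72e-04, called in all 10 alternatives) and rose by 1.15 in CTRL (adjusted p = 0.046, lost in 7 of 10), and the interaction of -4.35 did not pass (adjusted p = 0.0977). From hESC to iMeLC, CDX1 rose by 4.78 in CTRL (adjusted p = 3.3e-05) and 3.28 in CDKO (3.74e-04), and EVX1, beside HOXA13, rose by 3.42 (0.0088) and 3.90 (0.00231).

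Of the chromatin regulators known to hold HOX clusters silent or active, none passed between genotypes. Few of all genes passed, 226 of 17222 in hESC and 69 of 19999 in iMeLC, with 2777 and 3952 at an unadjusted p under 0.05. Lists of this size would then be likely to hold 0 calls, so these counts do not show that the regulators were unchanged. The counts were 0 of 12 Polycomb repressive complex 2 genes, 0 of 20 complex 1 genes and 0 of 16 Trithorax and H3K27 demethylase genes in each stage, with 3, 2 and 2 at an unadjusted p under 0.05 in hESC and 0, 6 and 2 in iMeLC by edgeR. The demethylase gene KDM6A came closest, with a log2 difference of 0.58 in iMeLC (adjusted p = 0.0785). Retinoic acid pathway genes, which can induce HOX genes from the 3' end, passed in 0 of 15 in hESC and 0 of 19 in iMeLC, with 3 and 6 at an unadjusted p under 0.05. The retinoid-binding gene CRABP1 differed by 1.39 in iMeLC (adjusted p = 0.124). Of posterior axis and caudal inducers 1 of 11 passed in hESC, NKX1-2 (0.64, adjusted p = 0.0146, lost without any 1 CDKO library and in the fit over 12 libraries, with 1.26e-06 to 0.405 over the alternatives), and 0 of 15 in iMeLC, with 6 and 2 at an unadjusted p under 0.05. Genes that flank the clusters passed in 0 of 22 in hESC and 0 of 23 in iMeLC, with 5 and 2 at an unadjusted p under 0.05 and medians of -0.05 and 0.04.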

How the data were processed

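Libraries were made from total RNA with a SMARTer Stranded Total RNA kit, per the labels' protocols. The deposited tables, 1 a stage, hold raw counts under gene symbols. The submitters' processing notes name FastQC, cutadapt, edgeR and GRCh38 (aligner, counter, annotation and strand setting: not given in the sources used here). These count tables were fitted whole with edgeR 4.0.16 (R 4.3.3) by the two-sided quasi-likelihood test after TMM and filterByExpr, with Benjamini-Hochberg adjustment over all genes tested and a threshold of 0.05. Genotypes were compared within a stage on 6 libraries, and stages and the interaction on 12 libraries with 4 group means. CPM used TMM-scaled totals within a stage. The scripts were tested on simulated data.

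Gene models and overlaps came from GENCODE 29 and promoters from RefSeq. HOXC5 has 2 gene models in GENCODE, of which the protein-coding one was used. The 38 members and all gene lists were chosen with earlier results of these data known. Of 39 matching rows, 1 is not reported here. Values in every library were given for members called between genotypes, the 8 smallest p in iMeLC, all members tested in hESC, the most abundant member of each cluster in iMeLC, and the 5 largest called rises and falls between stages (no fall was called). Other lists are given as counts with up to 4 members of smallest p. HOXB3, HOXB4, HOXD12, COL1A1, DCN, LUM and FAP were named after their values were seen. Alternatives were DESeq2 1.42.0, its size factors, no filter, other sets of libraries in the fit, CPM from unscaled totals, a mean of log2(CPM + 0.5) and leaving out each library.

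Replicate pairs differed by a chi-square of 4.04 to 181 per gene, well above sampling noise, so none was treated as a duplicate. Nothing says that lines were cultured separately, so p-values measure the spread between libraries. The same lines are labelled in both stages, but the fits treat all libraries as independent. Intervals cover counting error only, and PCR copies are not independent molecules.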

Additional observations from a re-analysis of the deposited data

How the results depend on the processing

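The calls in iMeLC depended most on the setting. The 0 members called by edgeR, with 69 of 19999 genes called, became 8 with DESeq2 (1471 of 20391 genes) and 1 without the filter on low counts (428 of 31204). They became 3 in the fit over 12 libraries (1310 of 20262 genes). When each library was left out they were 0 to 15, the 15 being without CTRL1101 (2646 of 20697 genes). Calls over all genes rose in the settings that called members. In hESC the 1 call, with 226 of 17222 genes called, became 0 to 1 over the omissions. The 0 was without CDKO hESC 2, where 5 of 17658 genes were called. From hESC to iMeLC in CTRL the 12 calls became 6 in the fit on the 6 CTRL libraries and 2 to 15 over the omissions, while in CDKO they ranged from 14 to 23 over all alternatives. The summed difference on the log2 scale went from 1.27 to 0.26 in hESC and from 1.46 to 0.67 in iMeLC as a mean of log2(CPM + 0.5). Adding 0.5 narrows the log2 differences of members below it, and in CTRL hESC every member mean but that of HOXB1 (0.850 CPM) was below. How much of the drop this makes was not tested. The summed difference ranged from 1.18 to 1.37 and from 1.13 to 2.30 over the omissions. In hESC it was 0.999 without HOXA7, an alternative chosen after seeing the data. None of the called members changed sign under an alternative, and no sign change passed. Sign changes occurred in 14 members for the interaction, in HOXB13 between the stages in CTRL, in HOXB1 between the stages in CDKO (-0.0443 with DESeq2 size factors, -0.0322 with DESeq2, -0.0281 in the fit on 6 libraries and -0.315 to 0.11 over the omissions), and in HOXB1 (-0.176 to 0.373), HOXB2 (-0.111 to 0.775) and HOXD3 between genotypes in iMeLC over the omissions. CDX4 in hESC ranged from -0.455 to 0.0594. In the stage comparisons the median of all genes went from -0.01 to -0.28 in CTRL and from -0.08 to -0.40 in CDKO with DESeq2, and to -0.16 and -0.45 without the filter. The interaction called 0 members under every alternative run. Without CTRL1101 its median over the 25 members went from 0.45 to 1.37. No paired analysis was possible because the hESC columns carry no line. Depth limits hESC most: 21 to 37 of 38 members had a count in a library there and 33 to 38 in iMeLC, against 18.6 to 33.9 and 24.1 to 35.9 expected at the total of the smallest library.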

Other observations

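The non-coding genes of the HOX clusters were also low. Of 20 in the tables, 1 was tested in hESC and 6 in iMeLC, and 0 passed between genotypes with edgeR, with 0 and 1 at an unadjusted p under 0.05. HOTAIRM1, a long non-coding RNA gene at the 3' end of the HOXA cluster, was at 0.123, 0.170 and 0.104 CPM in CTRL hESC, 0.408, 0.551 and 0.347 CPM in CDKO hESC, 4.79, 2.85 and 1.83 CPM in CTRL iMeLC against 2.80, 4.68 and 2.68 CPM in CDKO iMeLC. It rose from hESC to iMeLC by 4.88 in CTRL (edgeR adjusted p = 3.85e-06) and 3.31 in CDKO (adjusted p = 2.46e-05). Its iMeLC libraries overlapped between genotypes, unlike those of HOXA7.

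Markers of other cell types gave the following counts between genotypes with edgeR, in hESC and then in iMeLC. Neural markers had 1 of 8 and 1 of 10 called higher (OLIG2 in both, lost in 6 and 5 of 10 alternatives), definitive endoderm markers 0 of 8 and 0 of 10, later mesoderm markers 0 of 8 and 0 of 11, and amnion and trophoblast markers 0 of 8 and 0 of 9. Those at an unadjusted p under 0.05 numbered 1 and 2, 5 and 5, 4 and 5, and 1 and 2. Primitive streak markers had 1 of 11 (NODAL, lost in 5 of 10 alternatives) and 0 of 13 called higher, pluripotency markers 0 of 10 in both stages, fibroblast markers 0 of 15 and 0 of 20, and TET genes 0 of 3 in both stages. Their unadjusted counts were 8 and 3, 4 and 2, 5 and 10, and 2 and 0. Of all genes tested, 226 of 17222 were called in hESC and 69 of 19999 in iMeLC, with 2777 and 3952 at an unadjusted p under 0.05. The definitive endoderm sum was 611 CPM in CDKO hESC 3 against 68.8 to 128 CPM in the other hESC libraries, and 650 to 1427 CPM in CDKO iMeLC against 73.5 to 464 CPM in CTRL iMeLC. Their part in the HOX differences was not tested.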
